A study of Homo sapiens with 10 samples.

Results

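Hepatocyte growth factor (HGF) was given for 1 h to MDA-MB-435 cells, and their RNA was compared with that of untreated cells of the same line. The comparison used 4 of the 10 Affymetrix hgu133a arrays of the series, namely the 2 arrays labelled with 1 h of HGF and the 2 labelled as untreated. MDA-MB-435 is an established human line that the labels call melanoma, grown under standard conditions, and neither of these groups is labelled with a transgene. The other arrays, 2 each of cells after 6 h with HGF, after 24 h with HGF and after transduction with integrin Beta4 (ITGB4), entered the estimate of the spread. The arrays of a group were biological duplicates of 1 line, so every result is a result of that line. Neither the dose of HGF nor the presence of serum is given in the sources used here.

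HGF is a secreted ligand, made mostly by stromal cells, of the receptor tyrosine kinase MET. Bound MET recruits adaptors such as GAB1, GRB2 and the phosphatase PTPN11 and starts the RAS and ERK cascade and PI3 kinase signalling, which drive the scattering, migration and growth of epithelial cells and melanocytes. Immediate-early genes, such as those of the FOS, JUN and EGR families, are transcribed within minutes of such a signal without new protein synthesis, and NF-kB genes include their own inhibitors.

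Melanocyte markers were abundant in both groups. Of 22 melanocyte markers on the array, 18 were above the level required for testing, and the median level over the 22 was 10.74 in untreated cells and 10.62 after 1 h on the log2 scale of the robust multi-array average (RMA). The pigment cell genes MLANA and TYR had 12.24 and 11.76, and 12.17 and 12.10, on the untreated arrays, and the melanocyte regulators SOX10 and MITF untreated means of 11.46 and 11.17. Epithelial markers were tested for 4 of 24, with EPCAM at 3.67 and CDH1 at 4.76. Fibroblast markers were tested for 7 of 21, with DCN at 8.32 and COL1A1 at 7.59, while COL1A2 was not tested, at 6.08. LUM, a fibroblast matrix gene that was not tested, had 6.90 and 7.21 in untreated cells, against 5.67 and 5.43 after 1 h. Of 15 leucocyte and endothelial markers 1 was tested, and PTPRC lay at 5.64. The summed log2 levels of the fibroblast list were 142.13 and 142.96 in untreated cells, against 142.13 and 143.43 after 1 h, those of the epithelial list ran from 135.62 to 138.78 and from 138.96 to 141.05, and those of the leucocyte and endothelial list from 84.15 to 85.78 and from 86.13 to 87.05. As a measure of RNA integrity, the 3′ minus the 5′ signal was between -0.30 and -0.34 for ACTB in untreated cells and between -0.27 and -0.42 after 1 h, and for GAPDH it was -0.01 on both untreated arrays and -0.10 on both HGF arrays. The part of these shifts in the results was not tested.

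The receptor was present and the ligand was not detected above the level required for testing. MET had RMA levels of 9.38 and 8.86 in untreated cells, against 8.81 and 8.64 after 1 h. Both HGF arrays lay below both untreated arrays, but the difference of -0.39 (standard error 0.20, adjusted p = 0.243 by limma) did not pass the test, and the other 2 probe sets of MET differed by -0.49 and -0.31. HGF itself had levels of 6.43 on both untreated arrays and of 6.52 and 6.65 after 1 h.

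After 1 h with HGF more probe sets were called lower than higher, by a margin that depended on the test and its threshold. An adjusted p under 0.05 in limma was required of a call, and "rose" and "fell" are used of called probe sets only. Of 10176 probe sets tested, 59 rose, or 0.58%, and 518 fell, or 5.09%. At an unadjusted p under 0.05 the numbers were 1115 and 1581, and by the Mulcom t of the paper (at m = 0, against the critical value of Dunnett's test) they were 469 and 557. That critical value allows for the 4 comparisons with untreated cells and not for the number of probe sets. The paper instead tuned t and m to a rate of false calls estimated by permuting samples, so its counts are not comparable. In genes, 52 of 6390 had a probe set that rose, or 0.814%, and 412 had one that fell, or 6.45%, and 0 genes had probe sets called both ways. These 2 percentages over all genes are the background for every list given further on. The lists were chosen with earlier results of these data known, so their shares describe them and are no independent support. Of the called probe sets, 46 had no single gene symbol and are not named.

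The decreases were also larger than the increases. The 518 probe sets that fell had a median difference of -0.83, a fold of 1.78, between -2.11 and -0.45. The 59 that rose had a median of 0.56, a fold of 1.47, between 0.42 and 1.03. Over all probe sets the median difference was 0.06 with an SD of 0.34, the lowest 1% lay below -1.09 and the highest 1% above 0.50. A difference above 1 was measured for 1 probe set and a difference below -1 for 165. Of the probe sets that fell, 195 had a mean under 7.3 after 1 h, the level required for testing, and so did 4 of those that rose in untreated cells. Their differences are not exact in size, since signal near background moves less than the RNA. Among the genes named, this holds for FBXL15 and RELB in untreated cells, for RANBP2 in both groups, and after 1 h for ASPM, ZFYVE16, SMC3, KTN1, ZNF292, REV3L, CHD9, GULP1, PANK3, NEK7, DCPH1, ARID4B, SEMA3C, SMC2, NDUFA5, PRP4K, HNRNPA3, ELOVL6, BCL2A1, ITGAV, ENAH, EIF2AK2, ORC3 and RFC1.

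**Figure D1:**
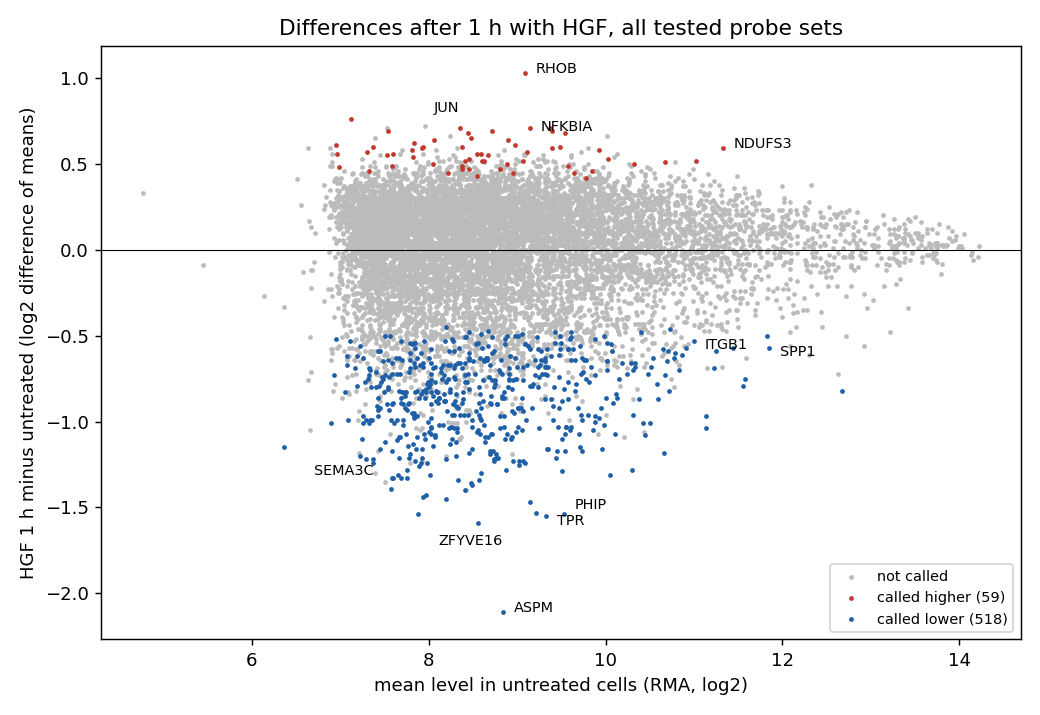
Each point is 1 of 10176 probe sets, with its mean RMA level in untreated cells (log2) on the horizontal axis and the log2 difference between the means of the 2 HGF 1 h and the 2 untreated arrays on the vertical axis. The 518 probe sets that fell (blue) reach to -2.11, the 59 that rose (red) to 1.03, and grey points were not called.

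Both HGF arrays showed the decreases, the first more than the second. Set against the mean of the untreated arrays, the probe sets that fell had a median of -0.92 on the first HGF 1 h array (replicate 1) and of -0.72 on the second, and replicate 1 lay farther out in 380 of 518. The probe sets that rose had medians of 0.62 and 0.48, and replicate 1 lay farther out in 43 of 59. For every called probe set both HGF arrays lay outside both untreated arrays. Such a separation was common among all probe sets tested, with both HGF arrays above both untreated arrays in 34% and below in 25.9%. On every pair of arrays at least a 1.5-fold change was seen for 4 probe sets upwards and 312 downwards, and at least a 2-fold change for 0 and 41. The duplicate arrays differed from each other with an SD of 0.195 in untreated cells and 0.277 after 1 h. No probe set passed limma when the first untreated array, the second untreated array or the first HGF 1 h array was left out (1664, 1702 and 1667 at an unadjusted p under 0.05), so every call given here rests on those 3 arrays. Without HGF 1 h replicate 2, 127 probe sets rose and 612 fell, without either HGF 6 h array 9 and 234, and without either ITGB4 array 124 and 858. Of the 71 called genes that the naming rule took, 55 were called without HGF 1 h replicate 2, where JUN had an adjusted p of 0.0781 and NFKBIA of 0.0556, and 33 without either HGF 6 h array.

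**Figure D2:**
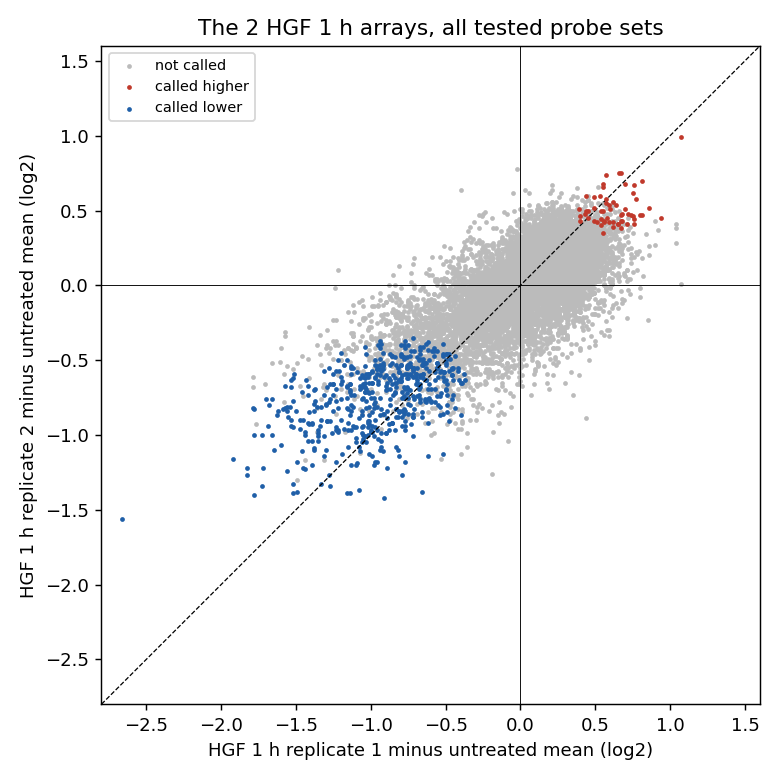
Each point is 1 of 10176 probe sets, with its log2 difference from the untreated mean on HGF 1 h replicate 1 (horizontal axis) and on HGF 1 h replicate 2 (vertical axis). Both arrays put the called probe sets on the same side of 0, and the median of those that fell was -0.92 on replicate 1 and -0.72 on replicate 2.

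Several transcription regulators of the immediate-early class rose. Of 30 measured genes of a list of such regulators, 5 rose and 0 fell, against 0.814% and 6.45% of all genes, and the median difference of the list was 0.27 against 0.07 over all genes, with 0.31 on replicate 1 and 0.19 on replicate 2. JUN, a partner of FOS in the factor AP-1, had levels of 8.27 and 8.44 in untreated cells, against 9.02 and 9.10 after 1 h. It rose by 0.71 (standard error 0.16, adjusted p = 0.0347), and its other probe set differed by 0.49 without passing the test. NR4A1, an orphan nuclear receptor of this class, went from 8.46 and 8.50 to 9.05 and 9.22 on 1 of its 3 probe sets, a rise of 0.65 (standard error 0.13), while the others differed by 0.13 and 0.30, and the mean of the 3 was not called (adjusted p = 0.0732). IER2, another immediate-early gene, had 10.09 and 9.98 before and 10.68 and 10.44 after, a rise of 0.53 that did not pass with either rescaling. JUNB and KLF2, named after their values were seen, rose by 0.52 and 0.46. FOS, which pairs with JUN, was not higher, with 8.18 and 7.69 in untreated cells, against 7.87 and 7.86 after 1 h (adjusted p = 0.891). EGR1, named like FOS and MYC as a textbook member of the class, had 7.78 and 7.28 before and 8.57 and 7.91 after, a difference of 0.71 with a wide standard error of 0.50 that did not pass the test (adjusted p = 0.376). MYC differed by -0.01. With each array centred on its median or with cyclic loess, 3 of the 30 rose.

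Subunits and inhibitors of NF-kB, the transcription factor of inflammatory signalling, included several genes that rose. Of 13 measured subunits and inhibitors 4 rose and 0 fell, with a median difference of 0.32. NFKBIA, the inhibitor that NF-kB induces and that returns it to the cytoplasm, had levels of 9.32 and 8.98 in untreated cells, against 9.82 and 9.90 after 1 h. It rose by 0.71 (standard error 0.14, adjusted p = 0.026). The subunits NFKB2 and RELB, which form the factor of the alternative pathway, went from 8.57 and 8.32 to 9.21 and 9.03 and from 7.06 and 6.84 to 7.70 and 7.41. They rose by 0.68 and 0.61, and the untreated mean of RELB was under the level of 7.3. NFKBIE, an inhibitor named after its values were seen, rose by 0.49, and the subunit NFKB1 differed by 0.05. Of 5 measured NF-kB target genes, 0 rose and 1 fell. This was BCL2A1, an anti-apoptotic BCL2 relative, which went from 7.92 and 7.87 to 7.00 and 7.05. With median centring or cyclic loess, 3 of the 13 subunits and inhibitors rose.

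A pair of stress response genes was higher. Of 34 measured genes of the unfolded protein and integrated stress response, 2 rose and 0 fell, with a median of 0.06, close to that of all genes. DDIT3, a transcription factor that stress induces, had 8.90 and 8.89 in untreated cells, against 9.70 and 9.37 after 1 h, a rise of 0.64 (standard error 0.14, adjusted p = 0.03). PPP1R15A, which brings a phosphatase to the initiation factor eIF2 and restores translation, went from 8.80 and 8.62 to 9.65 and 9.16, a rise of 0.69 that did not pass with either rescaling. It was called on 1 of 2 probe sets, and the other differed by 0.45. ATF4, which induces DDIT3 and PPP1R15A, differed by 0.14 (adjusted p = 0.575).

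The promoters of 3 of these genes are shown because all 3 genes rose within the hour. Each promoter also holds a match to the NF-kB site, the AP-1 site or the cyclic AMP response element. The promoters were chosen with these matches known. Each runs from 250 bases before to 50 after the start in the RefSeq annotation of GRCh38.p14, read 5′ to 3′ along the gene, and capitals mark a motif. In the promoter of NFKBIA, at chr14:35404700-35404999 on the minus strand, they mark a match to the NF-kB site 81 bases before the start and a TATA box, read on the other strand, 33 bases before it. In that of DDIT3, at chr12:57520465-57520764 on the minus strand, they mark an AP-1 site 241 bases before the start. In that of PPP1R15A, at chr19:48872171-48872470 on the plus strand, they mark a cyclic AMP response element 58 bases before the start and a TATA box 30 bases before it.
NFKBIA: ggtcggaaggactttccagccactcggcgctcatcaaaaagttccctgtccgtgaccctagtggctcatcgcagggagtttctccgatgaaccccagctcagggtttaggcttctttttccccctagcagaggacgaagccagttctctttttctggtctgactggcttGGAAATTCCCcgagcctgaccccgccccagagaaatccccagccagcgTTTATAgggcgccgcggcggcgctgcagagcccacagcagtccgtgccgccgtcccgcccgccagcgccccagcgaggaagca
DDIT3: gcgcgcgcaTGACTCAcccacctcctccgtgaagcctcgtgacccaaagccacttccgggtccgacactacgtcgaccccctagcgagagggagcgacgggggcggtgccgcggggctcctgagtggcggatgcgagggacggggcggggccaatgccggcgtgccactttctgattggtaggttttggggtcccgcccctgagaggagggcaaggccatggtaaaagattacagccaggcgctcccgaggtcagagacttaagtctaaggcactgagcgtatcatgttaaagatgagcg
PPP1R15A: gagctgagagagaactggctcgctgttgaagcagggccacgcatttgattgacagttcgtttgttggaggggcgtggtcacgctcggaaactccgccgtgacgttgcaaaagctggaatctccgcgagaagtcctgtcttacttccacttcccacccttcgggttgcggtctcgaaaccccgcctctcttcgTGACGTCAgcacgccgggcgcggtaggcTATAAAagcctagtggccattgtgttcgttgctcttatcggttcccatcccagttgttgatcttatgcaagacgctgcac

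Over the promoters of all called genes, motif content was described without a test. The motifs were the cyclic AMP response element TGACGTCA, the AP-1 site TGANTCA, the TATA box TATAAA and, by name, the NF-kB site and the serum response element, each on both strands. The serum response element can hold the letters of a TATA box, and the other motifs share no match. A promoter was found for 46 genes with a probe set that rose, 363 with one that fell and 5356 of all genes tested. The cyclic AMP response element stood in 8.7% of the first, 3.31% of the second and 3.75% of all tested, against 1.98% of all 27305 promoters of the table. The AP-1 site stood in 8.7%, 3.31% and 4.18%, against 7.76% of the table, and the TATA box in 10.9%, 6.61% and 5.17%, against 12%. The NF-kB site stood in 6.52%, 12.9% and 13.3%, against 10.8%, and the serum response element in 0%, 0.275% and 1.27%, against 1.29%. The shares of 8.7% rest on 4 promoters each.

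The increase that was largest among named genes was that of RHOB, a GTPase of endosomes and a known early response gene. It had levels of 9.20 and 8.98 in untreated cells, against 10.16 and 10.08 after 1 h, and it rose by 1.03, or 2.05-fold (standard error 0.19, adjusted p = 0.0226). Its levels were 9.56 and 9.71 at 6 h and 8.81 and 8.82 at 24 h.

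Other increases were of genes with diverse roles. FBXL15, a ubiquitin ligase subunit, went from 7.03 and 7.22 to 7.93 and 7.83, and ATG101, of the kinase complex that starts autophagy, from 9.36 and 9.38 to 10.13 and 10.04. They rose by 0.76 and 0.71. CYB561D2, a cytochrome b561 protein, rose by 0.69 and GYS1, the glycogen synthase of muscle and most tissues, by 0.68. AP5S1, of an adaptor complex of endosomes, rose by 0.64, SYP, the synaptic vesicle protein synaptophysin, by 0.62, and ZSWIM8, a ubiquitin ligase subunit that degrades Argonaute proteins, by 0.61. The naming rule required of each of these 7 genes that both HGF arrays lie above both untreated arrays. The closest pair was that of AP5S1, at 8.52 against 8.14. From the lists, NDUFS3 of respiratory complex I rose by 0.59, TAP1, a peptide transporter for antigen presentation, by 0.52, and the zinc finger gene ZNF335 by 0.47. With median centring AP5S1, TAP1 and ZNF335 did not pass (adjusted p = 0.0501, 0.0556 and 0.0531), nor with the spread of the compared groups alone (0.0568, 0.0741 and 0.0687).

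**Figure D3:**
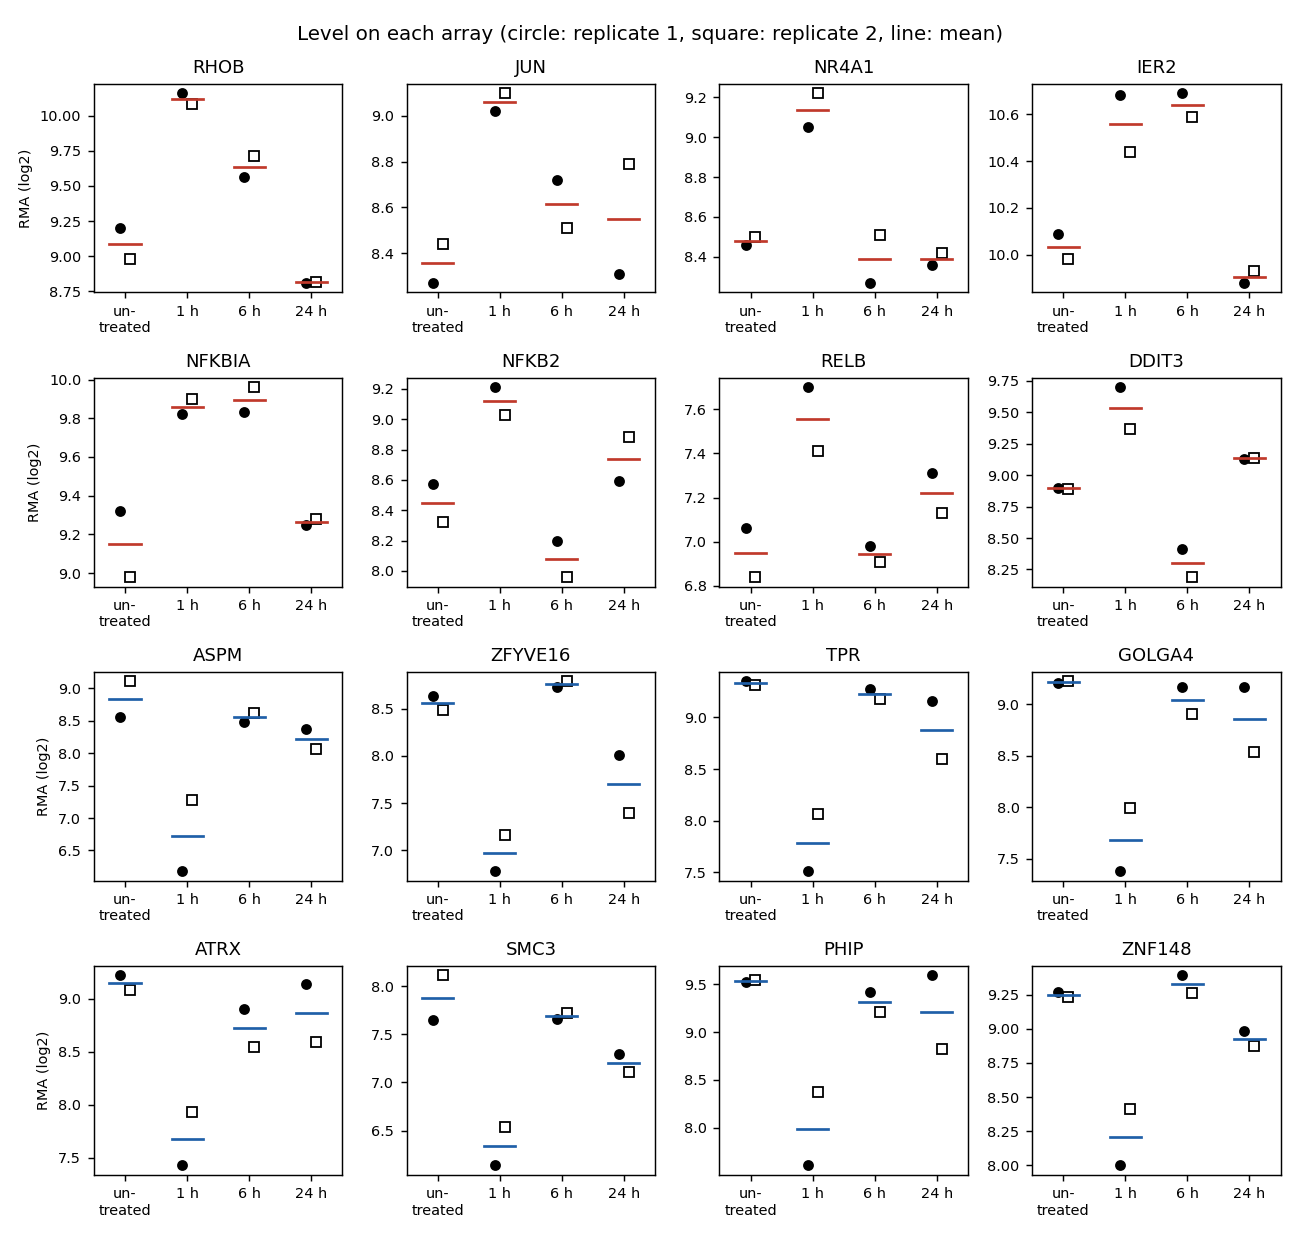
RMA levels (log2, vertical axes with a range of their own in each panel) of 16 named genes on the untreated, HGF 1 h, 6 h and 24 h arrays, with replicate 1 as a circle, replicate 2 as a square and a line at the mean. As for every called probe set, the HGF 1 h arrays do not overlap the untreated arrays. They lie above them in the 8 upper panels and below them in the 8 lower panels. ASPM has the widest distance, from 8.56 and 9.11 to 6.18 and 7.28.

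The feedback genes of the ERK pathway, which HGF is known to induce, had no member called. Of 13 measured dual-specificity phosphatases and Sprouty genes 0 rose and 0 fell, with a median of 0.16. DUSP6, the phosphatase of ERK, named here as the textbook ERK target, had 8.61 and 8.37 on its brightest probe set in untreated cells, against 8.07 and 7.53 after 1 h, a difference of -0.69 (standard error 0.29, adjusted p = 0.166). DUSP1, a nuclear phosphatase of the same class, differed by 0.20. Of 23 measured genes of the MET adaptors, 0 rose and 1 fell. This was PTPN11, the phosphatase SHP2 that binds GAB1, which went from 10.16 and 10.21 to 9.51 and 9.53, a difference of -0.66 on 1 of 3 probe sets. Of 20 measured secreted growth factors, chemokines and urokinase genes 0 rose and 2 fell. SEMA3C, a guidance semaphorin, went from 7.61 and 7.70 to 6.38 and 6.31, a difference of -1.31 (standard error 0.16, adjusted p = 0.0082), and SPP1, the matrix protein osteopontin, from 11.83 and 11.88 to 11.18 and 11.39. The HGF arrays of SEMA3C lay far below both untreated arrays and below 7.3.

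The largest decreases among called genes included ASPM, ZFYVE16, TPR, PHIP, GOLGA4 and ATRX. ASPM, which holds the spindle pole together, went from 8.56 and 9.11 to 6.18 and 7.28 and fell by 2.11, or 4.31-fold (standard error 0.36, adjusted p = 0.0193). The arrays of ASPM spread within each group, and the distance between groups was wider. ZFYVE16, an endosomal protein of TGF-beta signalling, went from 8.63 and 8.49 to 6.78 and 7.16, a difference of -1.59 (standard error 0.23). TPR, the large coiled-coil protein of the nuclear basket, had 9.35 and 9.31 before and 7.51 and 8.06 after, a difference of -1.55 that its second probe set showed at -1.22. PHIP, a chromatin reader of the ubiquitin ligase system, fell by 1.54, and its second probe set fell by 1.36. REV3L, the catalytic subunit of the translesion polymerase zeta, fell by 1.40, GULP1, an adaptor for engulfment, by 1.34, and the kinase NEK7, of spindle assembly and of the inflammasome, by 1.33. PANK3, of coenzyme A synthesis, fell by 1.34 on 1 of 2 probe sets, and the other differed by 0.05. DCPH1 fell by 1.33.

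Coiled-coil proteins of the Golgi, the centrosome and endosomes fell in many cases. Of 24 measured genes 11 fell, or 45.8% against 6.45% of all genes, 0 rose, and the median was -0.70 against 0.07 over all genes. This list was chosen with earlier results of these data known, so its share is a description only. The median was -0.82 on HGF 1 h replicate 1 and -0.49 on replicate 2, and -0.74 with cyclic loess. GOLGA4, a golgin that tethers vesicles at the trans Golgi, went from 9.20 and 9.22 to 7.38 and 7.99, a difference of -1.53 (standard error 0.26, adjusted p = 0.0203). KTN1, the kinesin-binding protein kinectin, is of the endoplasmic reticulum, although the list held it. It went from 7.93 on both untreated arrays to 6.44 and 6.55, a difference of -1.44, and all 3 of its probe sets passed. With ZFYVE16 the list also held, named after their values were seen, GOLGB1, GOLGA5 and GCC2 of the Golgi, RB1CC1 of autophagy initiation, RAB11FIP2 of recycling endosomes, and CEP57, CEP350 and PCM1 of the centrosome. Each of these had at least 1 probe set that fell.

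Chromatin genes fell in a large share. Of 53 measured genes of a list of remodellers and histone modifiers that also held cohesin genes, 14 fell, or 26.4%, 0 rose, and the median was -0.27. SMC3, a cohesin subunit, went from 7.65 and 8.11 to 6.14 and 6.54, a difference of -1.54 that its second probe set showed at -1.19. ATRX, a remodeller of the SNF2 family that deposits histone H3.3, had 9.22 and 9.08 before and 7.43 and 7.93 after, a difference of -1.47 (standard error 0.23, adjusted p = 0.0122). CHD9, another SNF2 remodeller, fell by 1.37 and ARID4B, of the SIN3 deacetylase complex, by 1.33, with 6.42 on both HGF arrays. STAG2 and NIPBL, which form and load cohesin, were named after their values were seen. STAG2 fell on 3 of 3 probe sets, with differences of -0.94, -1.28 and -1.12, and NIPBL on 1 of 3, with -1.26.

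Genes of pre-mRNA splicing were lower in part. Of 27 measured splicing factors and their kinases 6 fell, or 22.2%, and 0 rose, with a median of -0.18. RBM25, a regulator of splice site choice, went from 8.72 and 8.74 to 7.28 and 7.83 and fell by 1.17 (standard error 0.22), with 3 of 5 probe sets called. RBM39, a coactivator in splicing, fell by 1.16 on 1 of 2. The kinase PRP4K, of the spliceosome, fell by 1.21, and its other probe sets had differences of -1.04 and -1.16. SRSF11 and PNISR, of the serine and arginine rich class, fell, with differences of -0.92 and -1.04. Of 22 measured hnRNP and paraspeckle genes 2 fell, HNRNPA3 with a difference of -1.01 and HNRNPDL with -0.97, each on 1 probe set, and the median was -0.24. Of 20 mRNA decay factors 0 rose and 0 fell, with a median of -0.03.

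The nuclear transport list had a median close to 0 although it held TPR. Of 45 measured genes 4 fell, or 8.89%, 0 rose, and the median was -0.03. RANBP2, a nucleoporin of the cytoplasmic filaments, fell by 1.01 on 1 of 2 probe sets, with levels of 6.81 and 6.98 before and 5.98 and 5.79 after, all under 7.3. That probe set reached 7.3 only on arrays outside this comparison, such as those at 6 h with 7.44 and 7.47. The brighter probe set of RANBP2 differed by -0.65 without passing the test (adjusted p = 0.128). TNPO1, the import receptor transportin, fell by 0.86, and on a second of its 5 probe sets it fell by 0.73.

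Of 57 measured genes of the G2 and M phases 11 fell, or 19.3%, and 0 rose. The median of the list was -0.09, and on single arrays it was -0.26 and 0.26 in the untreated duplicates and -0.20 and 0.02 in those with HGF, each against the mean of untreated cells, so that the groups overlapped for the list as a whole. The median was -0.39 without untreated replicate 1, 0.16 without untreated replicate 2 and 0.02 without HGF 1 h replicate 1, so its direction rested on the arrays used. SMC2, of the condensin complex, went from 8.43 and 8.76 to 6.81 and 7.77, a difference of -1.30, and HMMR, a spindle assembly protein, from 8.88 and 9.24 to 7.44 and 8.22, a difference of -1.23 on 1 of 2 probe sets called. Among the other members that fell, named after their values were seen, were TTK of the spindle checkpoint, with 8.62 and 9.28 before and 7.25 and 8.19 after, SMC4, TOP2A and CDK1. CDK1, the kinase that drives mitosis, fell by 1.17 on 1 of 3 probe sets, and cyclin B1, its partner (CCNB1), differed by 0.20. Of 48 genes of DNA replication and the S phase 2 fell, RFC1 by 0.68 on 1 of 2 probe sets and ORC3 by 0.72.

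**Figure D4:**
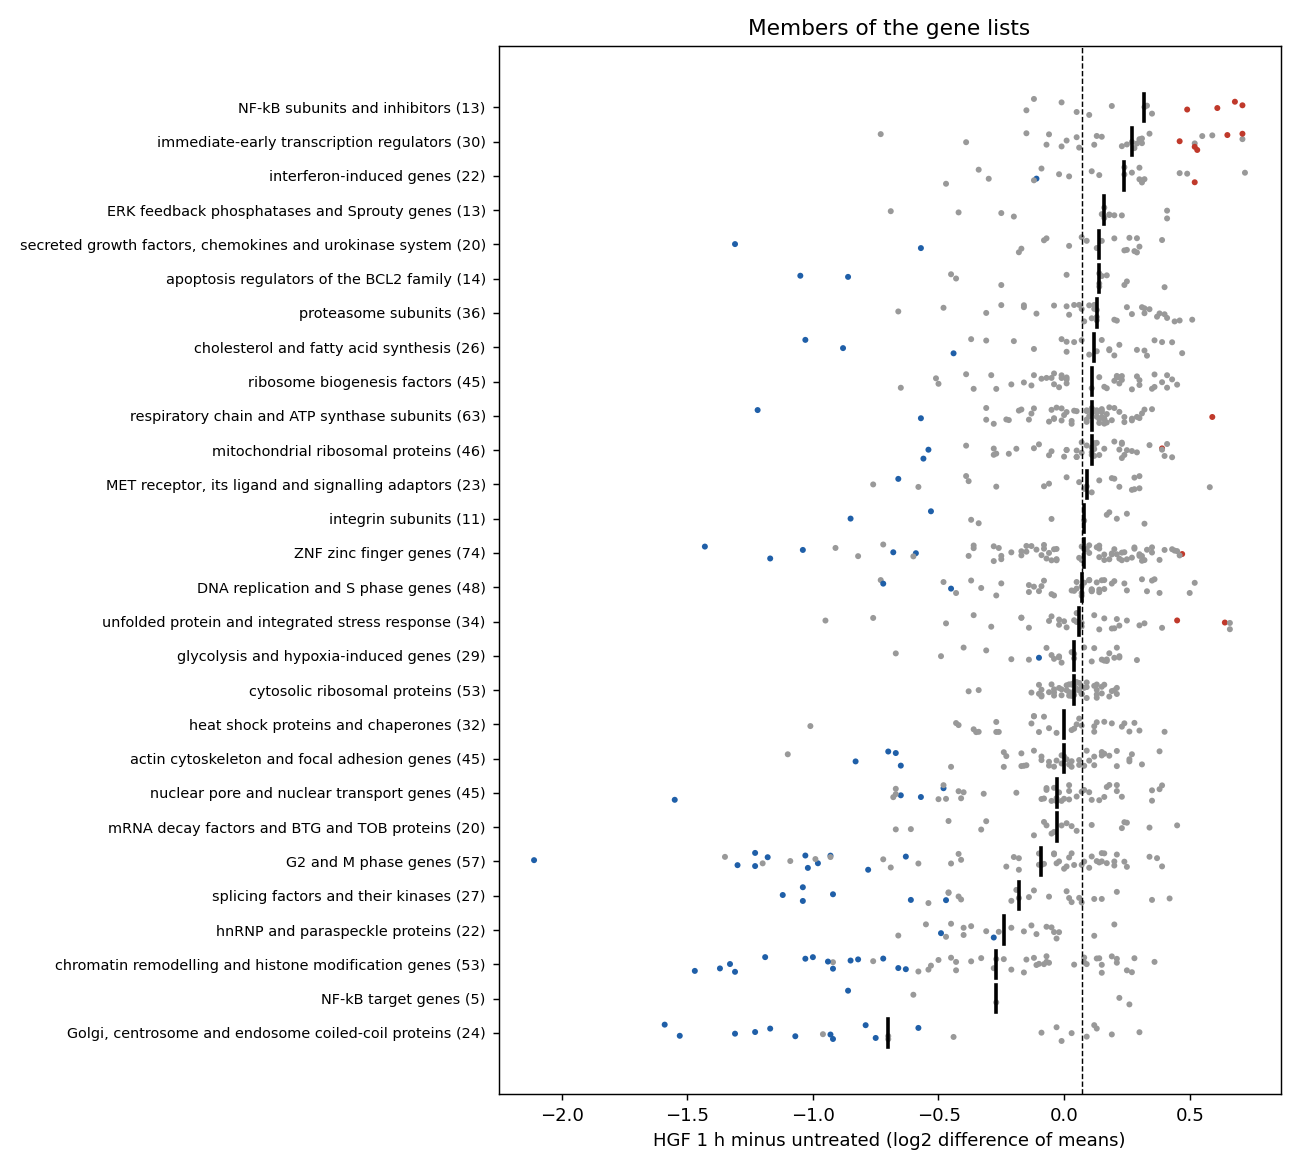
Log2 differences after 1 h with HGF (horizontal axis) of the measured genes of each list described here, each gene as a dot at its probe set of highest mean level, coloured where any of its kept probe sets rose or fell, with the number of measured genes in parentheses, the list's median as a black bar and the median of all genes, 0.07, as a dashed line. The list of Golgi, centrosome and endosome coiled-coil proteins has its median at -0.70, that of NF-kB subunits and inhibitors at 0.32.

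Housekeeping lists showed few calls. Of 53 cytosolic ribosomal proteins, 45 ribosome biogenesis factors, 36 proteasome subunits and 32 heat shock proteins and chaperones, 0 genes rose or fell, with medians of 0.04, 0.11, 0.13 and 0.00. With cyclic loess 2 heat shock genes fell and the medians of the cytosolic ribosomal proteins and of the heat shock list became -0.01 and -0.06. Of 46 mitochondrial ribosomal proteins MRPS12 rose by 0.60 on 1 of 2 probe sets, and MRPL42 and MRPL39 had differences of -0.56 and -0.54 and were called lower. MRPS12 did not pass with median centring (adjusted p = 0.0525) or cyclic loess (0.055), nor MRPL39 with median centring (0.0597). Of 63 respiratory chain and ATP synthase genes NDUFS3 rose, and NDUFA5 of complex I and CYCS, cytochrome c, fell. NDUFA5 had 7.34 and 7.41 before and 6.29 and 6.00 after, a difference of -1.22 (standard error 0.15, adjusted p = 0.0082).

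Metabolic, adhesion and survival lists varied in the share that fell, against 6.45% of all genes. It was 18.2% for integrin subunits, 14.3% for the list of BCL2 family regulators and 11.5% for cholesterol and fatty acid genes. For actin and focal adhesion genes it was 8.89%, and for glycolysis and hypoxia genes 3.45%. Each of these shares rests on few genes. Of 26 cholesterol and fatty acid genes 3 fell, with a median of 0.12 over the list. SC5D, a desaturase of cholesterol synthesis, went from 9.55 and 9.37 to 8.42 and 8.45, a difference of -1.03, and ELOVL6, an elongase, and IDI1, of isoprenoid synthesis, fell, with differences of -0.88 and -0.57. IDI1 was called on 1 of 2 probe sets, and the other, brighter one differed by -0.44. Of 29 glycolysis and hypoxia genes BNIP3L, a mitophagy receptor, fell by 0.68 on 1 of 2 probe sets. Of 45 actin and focal adhesion genes 4 fell, among them ENAH, which promotes the elongation of actin filaments, RDX, which links the membrane to actin, and CAPZA2, which caps filaments, by 0.83, 0.70 and 0.67, and the fourth, MYO5A, a motor for melanosomes, was named after its values were seen. CAPZA2 was called on 1 of 2 probe sets, and the other differed by -0.48. Of 11 integrin subunits ITGAV fell, from 8.06 and 8.04 to 7.01 and 7.40, and ITGB1 from 10.92 and 11.09 to 10.36 and 10.59. Of 14 genes listed as BCL2 family regulators BCLAF1 and BCL2A1 fell, by 1.05 and 0.86, and BCLAF1 is not itself a member of that family. Of 22 interferon-induced genes, with medians of 0.43 and 0.04 on the HGF arrays, TAP1 rose, and EIF2AK2, the kinase PKR, fell by 0.82 on 1 of 2 probe sets. Of 74 measured ZNF genes 1 rose and 5 fell, among them ZNF292 with a difference of -1.43, ZNF638 with -1.21 and ZNF148 with -1.04. Of 18 melanocyte markers RAB27A, which tethers melanosomes, fell by 0.77, and on a second of its 4 probe sets it fell by 0.75.

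The genes that rose were shorter on the genome than those that fell. Genomic span, from the RefSeq annotation of GRCh38.p14, had a median of 8.46 kb in the 52 genes with a probe set that rose, 68.1 kb in the 412 with one that fell and 29.2 kb in all 6390. In quartiles of span, the shortest genes, up to 12.2 kb, rose in 2% and fell in 1.25%, and the longest, from 66.7 kb, rose in 0.188% and fell in 13.1%. In the 2 quartiles between them 0.752% and 0.313% rose and 3.38% and 8.02% fell. The median difference was 0.16, 0.12, 0.02 and -0.09 from the shortest to the longest quartile. It was 0.20 in the shortest and -0.07 in the longest on HGF 1 h replicate 1, and 0.13 and -0.11 on replicate 2. After 6 h it was 0.05 and 0.08 in the shortest and -0.07 on both arrays in the longest, after 24 h 0.00 and 0.12 in the shortest and -0.07 and -0.06 in the longest, and on the ITGB4 arrays -0.03 and 0.00 in the shortest and 0.04 and -0.05 in the longest. The second HGF 24 h array thus lay close to the second HGF 1 h array in the shortest quartile. Among genes in the lowest tertile of mean level in untreated cells 1.78% of the shortest and 10.5% of the longest fell. The shares were 0.655% and 13.6% in the middle tertile, and 1.3% and 16.8% in the highest. These tertiles share the untreated arrays with the differences. Span is a property of the annotation, and no test was made of it. Its part in the differences was not tested.

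**Figure D5:**
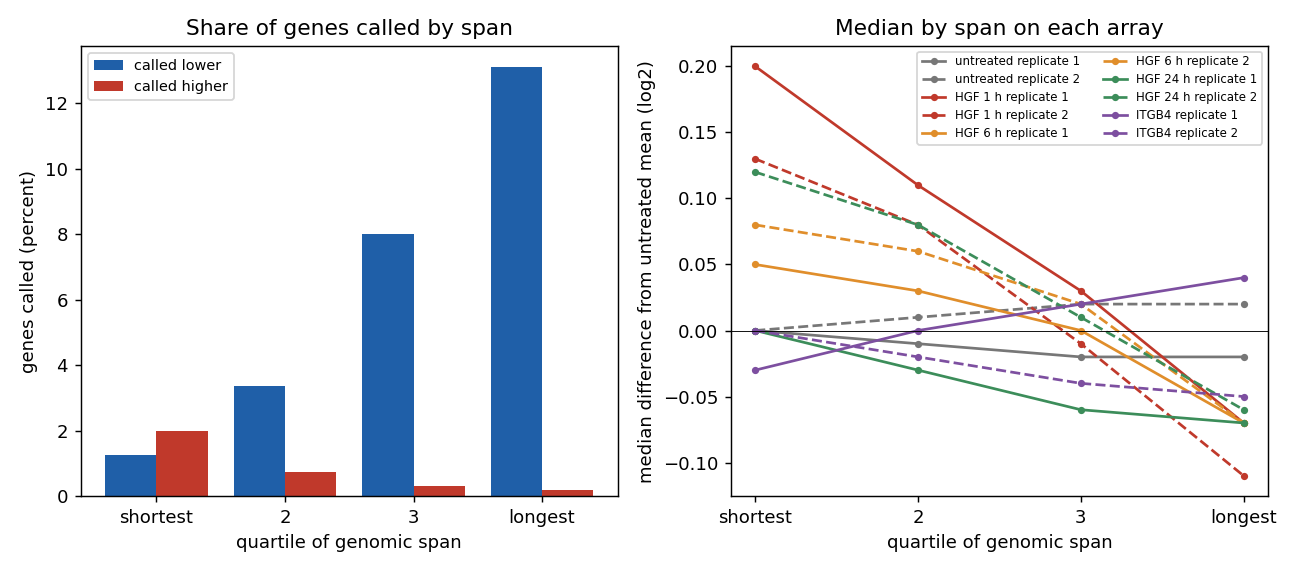
Genes in quartiles of genomic span (horizontal axes, RefSeq GRCh38.p14), with the percent of genes called higher or lower after 1 h with HGF (left) and the median log2 difference from the untreated mean on each of the 10 arrays (right). The share called lower goes from 1.25% in the shortest quartile to 13.1% in the longest, and the share called higher from 2% to 0.188%.

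Against the later times, the HGF 1 h arrays were tested directly. At 6 h 1208 probe sets were higher than at 1 h, or 11.9%, and 651 lower, or 6.4%, which in genes was 861, or 13.5%, and 521, or 8.15%. When the first 1 h array was left out, the total of 1859 probe sets became 320, and it became 371 and 201 without the first and the second 6 h array, and the lower ones were 423 without either untreated array. Of the lists with decreases at 1 h, 17 of 45 nuclear transport genes, 18 of 57 G2 and M genes, 15 of 27 splicing factors, 12 of 22 hnRNP genes, 17 of 53 chromatin genes and 9 of 24 coiled-coil genes were higher at 6 h than at 1 h. Of the same lists 6 chromatin genes and 2 splicing factors were lower at 6 h than at 1 h, and 0 genes of the other 4. Of the 30 immediate-early regulators 1 was higher and 7 were lower at 6 h than at 1 h, and of the 34 stress response genes 2 and 12. Of the 13 ERK feedback genes 5 were higher, and of 45 ribosome biogenesis factors 21. The lists and the genes named were picked with the 1 h arrays in view, so these counts describe them and are no independent support.

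At 24 h 1 probe set was higher than at 1 h, or 0.00983% (1 gene, 0.0156%), and 0 were lower by limma, and at an unadjusted p under 0.05 the numbers were 765 and 727. The 1 was of MBNL1, a regulator of splicing and named because the count is small, with 6.28 and 6.45 in untreated cells, 5.27 and 5.17 after 1 h and 6.37 and 6.28 after 24 h. These values were all under 7.3, so the probe set was tested only because of its levels on HGF 6 h or ITGB4 arrays, which are outside this comparison. The probe sets that fell at 1 h had a median difference from untreated cells of -0.83 at 1 h, -0.18 at 6 h, -0.33 at 24 h and 0.07 with ITGB4, and those that rose 0.56, 0.18, 0.21 and -0.04. All of these share the untreated arrays, and the probe sets were picked on the 1 h arrays. Such a choice by itself tends to give smaller differences on other arrays. A return towards untreated levels can therefore not be read from these medians. GOLGA4, for example, lay at 9.17 and 8.90 at 6 h and 9.17 and 8.54 at 24 h, and NFKB2 at 8.20 and 7.96 at 6 h and 8.59 and 8.88 at 24 h. NFKBIA lay at 9.83 and 9.96 at 6 h, and at 9.25 and 9.28 at 24 h.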

How the data were processed

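RNA of MDA-MB-435 cells was hybridized to 10 Affymetrix hgu133a arrays. The authors normalized the probe data with RMA (affy package), and deposited the result as log2 values of 22283 probe sets with 68 controls, from 2.19 to 14.28, with array medians between 6.81 and 6.88 on the 4 arrays compared. RMA equalizes the distributions of the arrays, so that a change in all transcripts together is not seen. The platform annotation gave 19065 probe sets 1 symbol, 1043 several and 2107 none. Probe sets other than controls with a second-highest value of at least 7.3 were kept (10176), in place of the presence calls of the paper.

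Differences were tested with limma 3.58.1 in R 4.3.3, with a mean for each of the 5 groups over all 10 arrays, no replicate block, 5 residual and 5.94 prior degrees of freedom and Benjamini-Hochberg adjustment over the kept probe sets. With 2 arrays against 2 an exact two-sided p cannot go below 0.333 for a single gene, so few arrays set the precision. A gene counts as called when any kept probe set was called, and is otherwise represented by the kept probe set with the highest mean. In a test on simulated data of 10176 probe sets for HGF 1 h against untreated cells, changes of 0.5, 1, 1.5 and 2 were recovered in 20%, 94%, 100% and 98%, with 4 false calls in 160. Its noise was independent, equal in all groups and drawn from the spread that limma fitted. The real duplicates differed with an SD of 0.195 in untreated cells and 0.277 after 1 h. The simulated shares are therefore no error rate for the 577 real calls.

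The genes named were the called genes with the 14 highest and the 14 lowest differences, provided that the HGF 1 h and the untreated arrays did not overlap, up to 3 called members each way of each list, and MET and HGF. The result of 1 list is not reported here. The comparison, the filter, the lists and the motifs were chosen with earlier results of these data known, and other genes named were chosen after their values were seen. Alternatives were no filter, a stricter filter of 8, cyclic loess, centring on array medians, averaging the probe sets of a gene, a block for the replicate number, the omission of each array, a spread from the compared groups alone, a trended and robust prior, the Mulcom t of the paper at m = 0 against Dunnett's critical value of 3.48, and a fold of at least 1.5. Genomic spans and promoters came from RefSeq (GRCh38.p14). The span replaced protein length, which was not used here. The paper also profiled the same RNAs on Illumina arrays, which were not analysed here. For 1 h of HGF it counted no gene of its Affymetrix limma list as repeated on Illumina. It did count part of its Mulcom list and part of its SAM list as repeated. Its limma list was made after a different filter, so it is not the list of calls given here. Whether the calls given here repeat on the Illumina arrays was not tested.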

Additional observations from a re-analysis of the deposited data

Results flagged for a closer look

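Between 6 h and 1 h 1859 probe sets passed limma, 1208 higher and 651 lower at 6 h. The count was 201 without HGF 6 h replicate 2, below the 243 between 1 h and untreated cells in the same fit. Between 24 h and 1 h 1 probe set passed, that of MBNL1. A difference between treated groups marked both results for attention. Both are direct tests between treated groups, and neither uses the untreated arrays except for the spread.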

How the results depend on the processing

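The decreases after 1 h outnumbered the increases under every alternative that gave calls. With 1 array left out, the 577 called probe sets ranged from 0 to 982, the 59 higher from 0 to 127 and the 518 lower from 0 to 858. The count was 0 without the first or second untreated array or the first HGF 1 h array, where the adjusted p of the 71 called genes of the naming rule ran from 0.056 to 0.264. The increases numbered 36 with median centring, 23 with the spread of the compared groups alone, 23 with a fold of at least 1.5, 116 with the replicate block and 469 by the Mulcom t, which took the total to 1026 with 557 lower. The counts by the Mulcom t were not adjusted over probe sets. The decreases numbered 784 without the filter. The alternatives not named here kept these counts within 1.5 times. The median difference over all probe sets was 0.06, 0.07 with median centring and 0.00 with cyclic loess. Of the 71 called genes of the naming rule 0 changed direction under the alternatives run, while genes that were not called, such as FOS, were not followed. The calls of 17 of the 71 were lost with the spread of the compared groups alone, among them DDIT3 and RELB, and of 10 with the mean of the probe sets of a gene, among them NR4A1. The differences near 7.3 are limited by background signal.

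With the replicate number as a block 116 probe sets were higher at 1 h, against 59 without it, and 71 of these 71 genes stayed called. The replicate differences of untreated and HGF 1 h arrays correlated at 0.22 across probe sets, those of untreated cells and the other groups from 0.13 to 0.45, and the lowest and highest between any groups were -0.14 and 0.46. With 2 replicate numbers and no label of a shared batch, whether the numbers pair the arrays was not settled, and they were treated as names only.

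Between 6 h and 1 h the total ranged from 201 to 2182 with 1 array left out, the higher from 159 to 1444 and the lower from 42 to 738. With a fold of at least 1.5 the total was 1158 and the lower 262. Between 24 h and 1 h, leaving out 1 array gave from 0 to 33 in all, from 0 to 23 higher and from 0 to 10 lower. The total, the higher and the lower were 10, 8 and 2 without the filter, 8, 7 and 1 with the mean of the probe sets of a gene, 26, 24 and 2 with the block and 47, 36 and 11 with the spread of the compared groups, and the total and the higher were 0 with the stricter filter, cyclic loess and the trended and robust prior. The cause of these changes was not tested.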
